A study of Mus musculus with 6 samples.

Results

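The ATF4 and CHOP stress response core is a set of 10 genes, Atf4, Ddit3 (which encodes CHOP), Atf3, Atf5, Trib3, Chac1, Asns, Sesn2, Ddit4 and Nupr1. They were taken by gene symbol from the 16775 genes of the deposited tables, and all 10 were found. Their estimated read counts and FPKM (fragments scaled to transcript length and library size) were followed in 6 RNA-seq libraries of bone-marrow-derived macrophages. The cells were bone marrow cells of C57BL/6 mice, grown for 5 days in DMEM with 10% FBS and 10 ng/ml M-CSF and then treated for 24 h. In 5 treatments IL4, the cytokine of alternative macrophage activation, was combined with a compound. The compounds were fatostatin, betulin, 25-HC, PF429424 and 1,10-Phen. The remaining treatment was IL4 alone. Doses are not in the labels, every library received IL4, and each treatment is represented by 1 library of cultured primary cells.

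ATF4 is the central transcription factor of the integrated stress response. Stress kinases phosphorylate the translation factor eIF2alpha, general protein synthesis slows, and the ATF4 protein is made more efficiently from its messenger RNA. ATF4 then switches on genes for amino acid supply and, together with CHOP, genes that tune survival, growth and the return to protein synthesis. In macrophages CHOP is known for its induction when the endoplasmic reticulum is loaded with free cholesterol. Because ATF4 is controlled mainly during translation, the mRNA level of Atf4 is not a measure of its protein.

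The libraries held between 20181396 and 21169667 estimated counts. No treatment was repeated, so no difference given here has a replicate check, no test between treatments was possible and no p-value is given. Every comparison sets a compound library against the IL4 library as a log2 ratio of scaled counts, and its exact 95% Clopper-Pearson interval reflects the counting of reads and nothing else. The call of higher or lower required a log2 ratio of 1 or more in either direction together with an interval that excluded no change. All 5 ratios of a gene share the IL4 library. Gene positions are from RefSeq on GRCm38.p6, the assembly of the deposited gene models.

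Between 0 and 9 of the 10 genes were called higher, depending on the compound, and none was called lower in any of the 5 comparisons. With fatostatin, 0 of 10 genes were called higher, where 0.873% of the 11908 genes compared were called higher and 1.04% lower (1.91% in either direction). With betulin, 3 of 10 were called higher, against 1.92% of all genes called higher and 2.24% lower (4.17% in either direction). With 25-HC it was 6 of 10, against 3.3% higher and 5.68% lower over all genes (8.98% in either direction). With PF429424 it was also 6 of 10, against 2.5% higher and 5.6% lower (8.1% in either direction). With 1,10-Phen it was 9 of 10, against 7.71% higher and 11.8% lower (19.5% in either direction). With library totals as the scaling, the share of calls that were higher was 24.8% with 1,10-Phen, where it was 39.6% with the TMM scaling (trimmed mean of M values) used throughout, and 19.9% with PF429424, where it was 30.9%.

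The median log2 ratio of the 10 genes was 0.27 with fatostatin, 0.69 with betulin, 1.27 with 25-HC, 1.25 with PF429424 and 2.35 with 1,10-Phen, while the median over all genes compared lay between -0.01 and 0.02. Trib3, Chac1 and Asns were called higher in 4 of the 5 compound libraries. Atf4, Ddit3 and Atf5 were called in 3, and Sesn2, Ddit4 and Nupr1 in the 1,10-Phen library. Atf3 was called in none. Chac1 reached a CPM of 1 (counts scaled to library size), the minimum for a gene to be compared, through 4 of the compound libraries and not through IL4, whereas the other 9 genes reached it with IL4 alone.

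**Figure D1:**
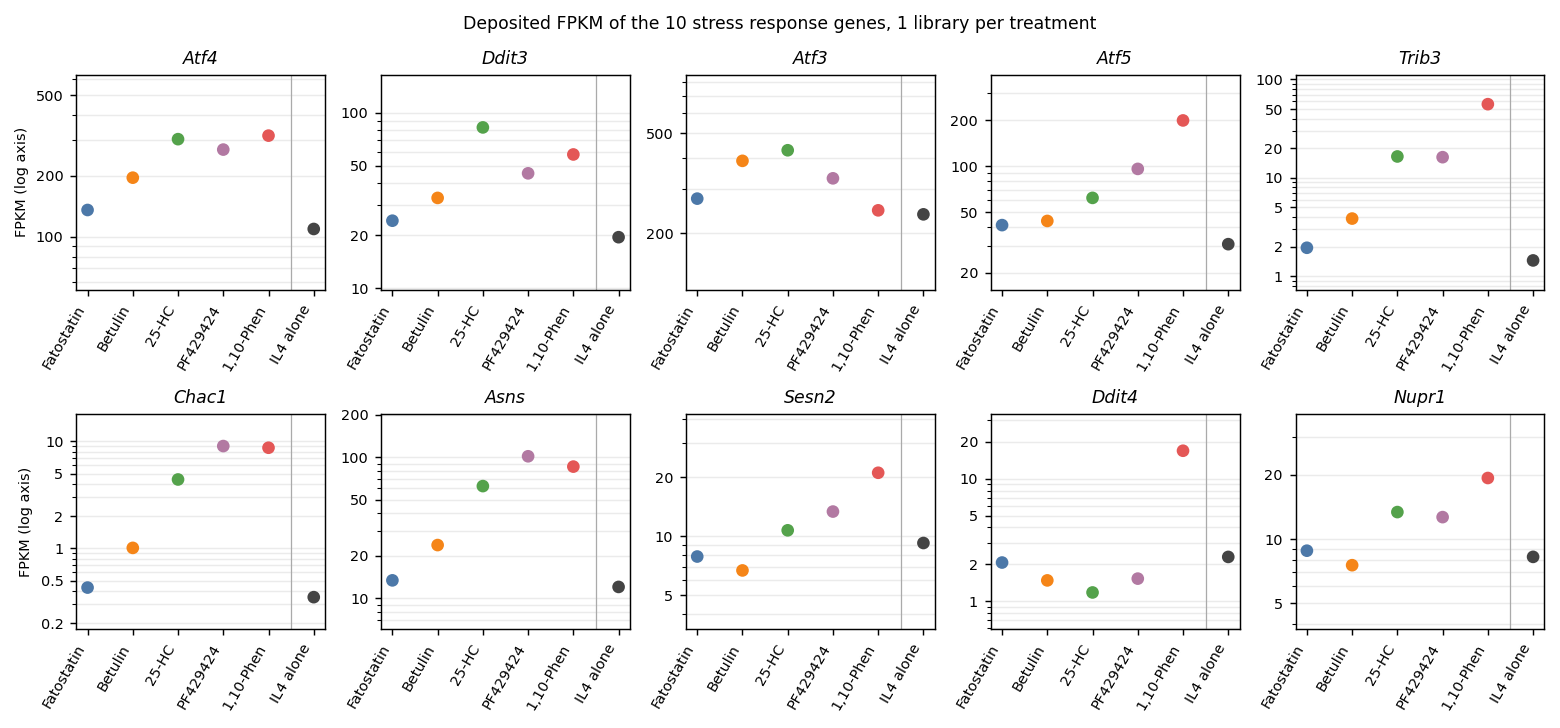
Deposited FPKM (log axis) of each of the 10 genes in the 5 compound libraries and in the IL4 library, 1 point per library, with a panel and an axis range for each gene. The points of Trib3 reach 56.0 FPKM with 1,10-Phen and lie at 1.45 FPKM with IL4 alone, whereas those of Atf3 stay between 238 and 428 FPKM.

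The purity and state of the cultures were read from marker lists. All 9 macrophage markers were above 0 in every library, and their summed level was 13820 CPM with fatostatin, 10020 with betulin, 7594 with 25-HC, 11550 with PF429424 and 8621 with 1,10-Phen, against 12700 with IL4 alone. Summed over 11 neutrophil markers the level was 284, 319, 342, 60.5 and 34.1 CPM in the same order of compounds, against 212 with IL4 alone. Ly6g was at 0 with PF429424 and 1,10-Phen, and Retnlg at 0 with PF429424. The neutrophil markers were thus lowest in 2 of the libraries with the most stress response calls, but not in the 25-HC library. Fewer cells of a type and less RNA per cell cannot be told apart in bulk RNA, and the part of the neutrophil markers in the results was not tested. Dendritic, lymphoid, erythroid and mast cell markers summed to at most 4.38 CPM in any library, and stromal markers to at most 100.1. Single macrophage markers moved in ways the sums do not show. With 25-HC, Mrc1 (log2 ratio -2.13), Adgre1 (-1.26) and Mertk (-1.065) were called lower and Cd14 (1.48) higher. With 1,10-Phen, Mertk (-2.82), Fcgr1 (-1.875) and Mrc1 (-1.12) were called lower, and with PF429424 Mertk (-1.10). No macrophage marker was called with fatostatin or betulin.

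Atf4 (NCBI Gene ID 11911, chr15:80255184-80257545, plus strand) was abundant in every library. It had 136 FPKM with fatostatin, 196 with betulin, 303 with 25-HC, 269 with PF429424 and 316 with 1,10-Phen, against 109 FPKM with IL4 alone. All 5 compound libraries lay above the IL4 library, and the order of the 6 levels, highest with 1,10-Phen, then 25-HC, PF429424, betulin, fatostatin and IL4 alone, had no neighbours within counting error of each other. The log2 ratio was 0.91 (interval 0.85 to 0.97) with betulin, just under the size required for a call, 1.497 (1.44 to 1.55) with 25-HC, 1.44 (1.38 to 1.49) with PF429424 and 1.76 (1.71 to 1.82) with 1,10-Phen. With fatostatin the ratio was 0.34 (0.28 to 0.41).

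Ddit3 (Gene ID 13198, chr10:127290793-127296291, plus strand) encodes CHOP, a partner of ATF4 that is known for promoting cell death under prolonged stress. Its level was 24.3 FPKM with fatostatin, 32.7 with betulin, 82.5 with 25-HC, 45.2 with PF429424 and 57.9 with 1,10-Phen, against 19.6 FPKM with IL4 alone. The 25-HC library was the highest, 1.18 times the 1,10-Phen library (interval 1.10 to 1.27) and 1.6 times the PF429424 library (1.48 to 1.74) in scaled counts. The log2 ratio to IL4 was 1.75 (1.61 to 1.91) with 25-HC, 1.51 (1.36 to 1.67) with 1,10-Phen and 1.07 (0.92 to 1.24) with PF429424, while betulin at 0.60 (0.43 to 0.77) and fatostatin at 0.28 (0.10 to 0.46) stayed below the size required. On the log2(FPKM + 1) scale the 25-HC ratio was 2.02, above its counting interval. The FPKM of Ddit3 thus gave a larger difference there than the scaled counts, and the reason was not tested. Ddit3 is the only one of the 10 genes whose estimated counts were not all whole, and in the annotation it shares 68 bases with Mars on the opposite strand. Mars encodes the methionyl-tRNA synthetase and had log2 ratios between 0.03 and 0.89, with no call. Whether reads were counted by strand is not stated in the sources, so reads from the shared bases cannot be assigned to either gene with certainty.

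Atf3 (Gene ID 11910, chr1:191170296-191183333, minus strand) encodes an early-response factor that many stresses and inflammatory signals induce. It had 275 FPKM with fatostatin, 388 with betulin, 428 with 25-HC, 331 with PF429424 and 247 with 1,10-Phen, against 238 FPKM with IL4 alone. The highest library was 1.84 times the lowest in scaled counts, the smallest range among the 10 genes. Its log2 ratio was largest with 25-HC, at 0.88 (0.85 to 0.92), and it was 0.77 with betulin, 0.61 with PF429424 and 0.26 with fatostatin. With 1,10-Phen, where the other 9 genes were called higher, it was 0.29 (0.25 to 0.34), and the 1,10-Phen and fatostatin libraries did not differ beyond counting error. Both statements hold for the TMM scaling. With library totals as the scaling, the ratio of Atf3 was 0.05 with 1,10-Phen and 0.21 with fatostatin. On the log2(FPKM + 1) scale these were 0.05 and 0.21 too.

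Atf5 (Gene ID 107503, chr7:44812256-44816658, minus strand), a relative of ATF4 with a role in mitochondrial and proteotoxic stress, followed a different order. Its level was 41.1 FPKM with fatostatin, 43.8 with betulin, 62.0 with 25-HC, 96.1 with PF429424 and 200 with 1,10-Phen, against 30.8 FPKM with IL4 alone. The 1,10-Phen library was 2.23 times the PF429424 library (2.15 to 2.33), and that in turn 1.66 times the 25-HC library (1.58 to 1.75). Log2 ratios to IL4 were 0.47 (0.36 to 0.59) with fatostatin, 0.57 (0.46 to 0.68) with betulin, 1.04 (0.94 to 1.15) with 25-HC, 1.78 (1.68 to 1.88) with PF429424 and 2.94 (2.85 to 3.03) with 1,10-Phen. The gene shares 571 bases with Nup62 and 272 bases with Il4i1, both on the opposite strand. Nup62 was called higher with 1,10-Phen, at 1.26, and Il4i1, an amino acid oxidase gene named for its induction by IL4, was lower in that library with 13 counts, against 496 with IL4 alone. Il4i1 was also called lower with betulin, at -1.95, and with PF429424, at -1.78. It was at -0.78 with fatostatin and -0.60 with 25-HC, without a call. Without the strand setting, the share of reads that belongs to each gene cannot be told apart.

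**Figure D2:**
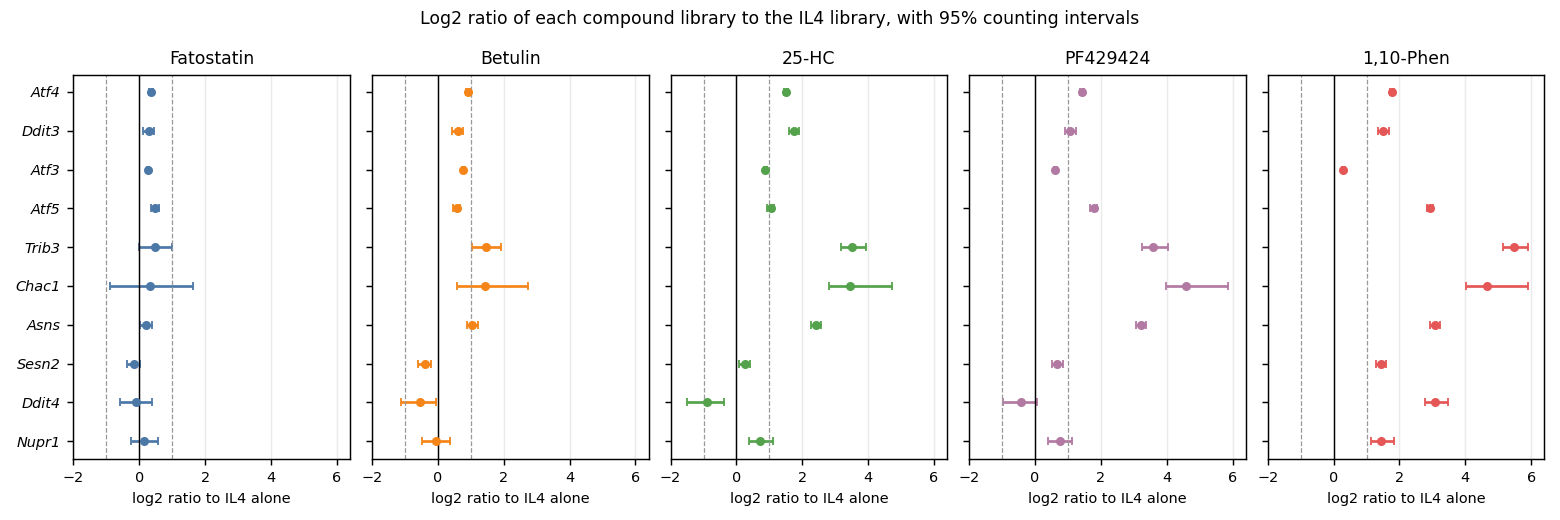
Log2 ratios to the IL4 library for the 10 genes, 1 panel per compound, with exact 95% counting intervals as bars. The dashed lines mark a log2 ratio of 1 in either direction. With fatostatin no gene passes the line, and with 1,10-Phen the single gene below it is Atf3 at 0.29.

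The 3 genes called in the most libraries are known ATF4 targets of different function. Trib3 (Gene ID 228775, chr2:152337425-152344060, minus strand) encodes a pseudokinase that binds ATF4 and CHOP and damps their activity. It had 1.95 FPKM with fatostatin, 3.86 with betulin, 16.5 with 25-HC, 16.2 with PF429424 and 56.0 with 1,10-Phen, against 1.45 FPKM with IL4 alone. The fatostatin library did not stand clear of the IL4 library, with 83 counts against 60 and an interval that held no change, and the other 4 compound libraries did. The 25-HC and PF429424 libraries did not differ beyond counting error. The log2 ratio of 5.47 (5.14 to 5.91) with 1,10-Phen, on 2384 counts against 60, was the largest of any of the 10 genes, and it was 3.50 (3.16 to 3.95) with 25-HC and 3.58 (3.24 to 4.03) with PF429424. Among all 11908 genes compared, Trib3 held rank 10 from the top with 25-HC and with PF429424 and rank 13 with 1,10-Phen.

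Chac1 (Gene ID 69065, chr2:119351242-119354326, plus strand) encodes an enzyme that breaks down glutathione. Its counts were 14 with fatostatin, 33 with betulin, 145 with 25-HC, 296 with PF429424 and 282 with 1,10-Phen, against 11 with IL4 alone, which corresponds to between 0.35 and 9.03 FPKM. The gene was thus close to the detection limit with fatostatin and with IL4 alone. The log2 ratio was 1.43 (0.57 to 2.73) with betulin, 3.46 (2.81 to 4.72) with 25-HC, 4.59 (3.97 to 5.85) with PF429424 and 4.64 (4.02 to 5.90) with 1,10-Phen. In the PF429424 comparison only 1 gene of all those compared had a larger ratio. With 11 counts in the IL4 library, the size of these ratios depends on the prior count, which is added before the ratio is taken. At a prior count of 10 in place of 2, the ratio was 3.92 with PF429424 and 3.97 with 1,10-Phen, each below its counting interval. The PF429424 and 1,10-Phen libraries did not differ beyond counting error, with a ratio of 1.04 (0.88 to 1.22) in favour of 1,10-Phen in scaled counts, while the FPKM was slightly higher with PF429424.

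Asns (Gene ID 27053, chr6:7675165-7693209, minus strand) encodes asparagine synthetase, which makes asparagine from aspartate and glutamine. Its level was 13.4 FPKM with fatostatin, 23.8 with betulin, 62.3 with 25-HC, 101 with PF429424 and 85.7 with 1,10-Phen, against 12.01 FPKM with IL4 alone. In scaled counts it was the only one of the 10 genes that was highest with PF429424, at 1.10 times the 1,10-Phen library (1.05 to 1.15). The log2 ratio was 1.05 (0.89 to 1.22) with betulin, 2.41 (2.27 to 2.56) with 25-HC, 3.21 (3.08 to 3.36) with PF429424 and 3.07 (2.94 to 3.22) with 1,10-Phen. The 3 betulin calls, in Trib3, Chac1 and Asns, did not hold on the log2(FPKM + 1) scale, where 0 of 10 genes were called, and 1 of 10 was called when the fatostatin library took the place of IL4.

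The promoters of these 3 genes are shown because these genes were called in the most libraries and each holds a match to the motif TGATGNAA, the C/EBP-ATF response element to which ATF4 binds with a C/EBP partner. The windows run from 250 bases before to 50 bases after the annotated start, are from RefSeq on GRCm38.p6, and are written 5′ to 3′ on the strand of the gene. Capitals mark the match on either strand, and in Chac1 also a match to the variant TGACGCAA at the first bases of the window.
Chac1, chr2:119350992-119351291, plus strand: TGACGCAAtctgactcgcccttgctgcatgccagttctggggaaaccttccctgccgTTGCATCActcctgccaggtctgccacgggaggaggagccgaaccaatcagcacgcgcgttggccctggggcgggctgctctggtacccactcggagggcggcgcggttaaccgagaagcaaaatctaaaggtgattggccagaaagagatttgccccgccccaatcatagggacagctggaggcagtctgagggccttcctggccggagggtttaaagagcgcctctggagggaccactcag
Trib3, chr2:152344011-152344310, minus strand: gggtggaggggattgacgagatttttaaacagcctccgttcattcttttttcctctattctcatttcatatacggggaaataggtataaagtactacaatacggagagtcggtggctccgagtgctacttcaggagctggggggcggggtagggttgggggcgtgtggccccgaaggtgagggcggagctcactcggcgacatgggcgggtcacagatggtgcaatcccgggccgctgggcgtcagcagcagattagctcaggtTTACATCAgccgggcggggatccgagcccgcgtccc
Asns, chr6:7693160-7693459, minus strand: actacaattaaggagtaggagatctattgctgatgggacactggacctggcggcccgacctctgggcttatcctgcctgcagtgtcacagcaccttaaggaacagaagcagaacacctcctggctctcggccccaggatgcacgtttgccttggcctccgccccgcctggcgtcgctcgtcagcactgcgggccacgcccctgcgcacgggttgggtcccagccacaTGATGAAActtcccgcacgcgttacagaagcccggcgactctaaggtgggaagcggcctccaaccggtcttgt

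Counted from the start, the match begins at base -193 in Chac1, at 15 in Trib3 and at -23 in Asns, where it lies on the plus strand of the gene. Matches were also found in the windows of Atf3 and Nupr1, each beginning at base -110, and these are given with 11 flanking bases on either side.
Atf3, chr1:191183436-191183443 with flanks, minus strand: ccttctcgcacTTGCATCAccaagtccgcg
Nupr1, chr7:126625573-126625580 with flanks, minus strand: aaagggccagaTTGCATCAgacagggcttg
The motif was thus present in 5 of the 11 windows of the 10 genes, Atf5 having 2, and in 3.97% of all 32851 RefSeq promoter windows. A match is a run of letters and not evidence of binding. The 5 genes with a match included the 3 with the most calls and also Atf3, which had none, and no match in the windows of Atf4, Ddit3, Atf5, Sesn2 and Ddit4 says only that these letters are not within 250 bases before and 50 after the start.

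Other motifs were searched on both strands of the same windows. The variant TGACGCAA was present in 0.49% of all windows and in Chac1 alone among the 10 genes. The cyclic AMP response element TGACGTCA was present in 1.79% of all windows, and the ER stress element in 0.119%, and neither was in a window of the 10 genes. The CCAAT box, whose letters also begin the ER stress element, was in 37.4% of all windows and in 7 of the 10 genes.

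Calls among the other genes of the table with a TGATGNAA match are given as description. With the 10 genes left out, 272 of the 9574 compared genes with a window held it. Of these 272 genes, 0.735% were called higher with fatostatin, 1.84% with betulin, 6.25% with 25-HC, 5.51% with PF429424 and 11.4% with 1,10-Phen. Over all 9574 genes it was 0.731%, 1.8%, 3.2%, 2.36% and 7.25% in the same order. The shares called lower were 6.62% of the motif genes and 5.36% of all 9574 with 25-HC, 4.41% and 5.17% with PF429424, and 11.8% and 11.6% with 1,10-Phen. The median log2 ratio of the motif genes was -0.01 with 25-HC, 0.03 with PF429424 and 0.07 with 1,10-Phen, against 0.01, 0.03 and -0.01 over all 9574. Among the 272 genes, 11 were further ATF4 and CHOP targets of the pathway lists, and no test of these shares was made.

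**Figure D3:**
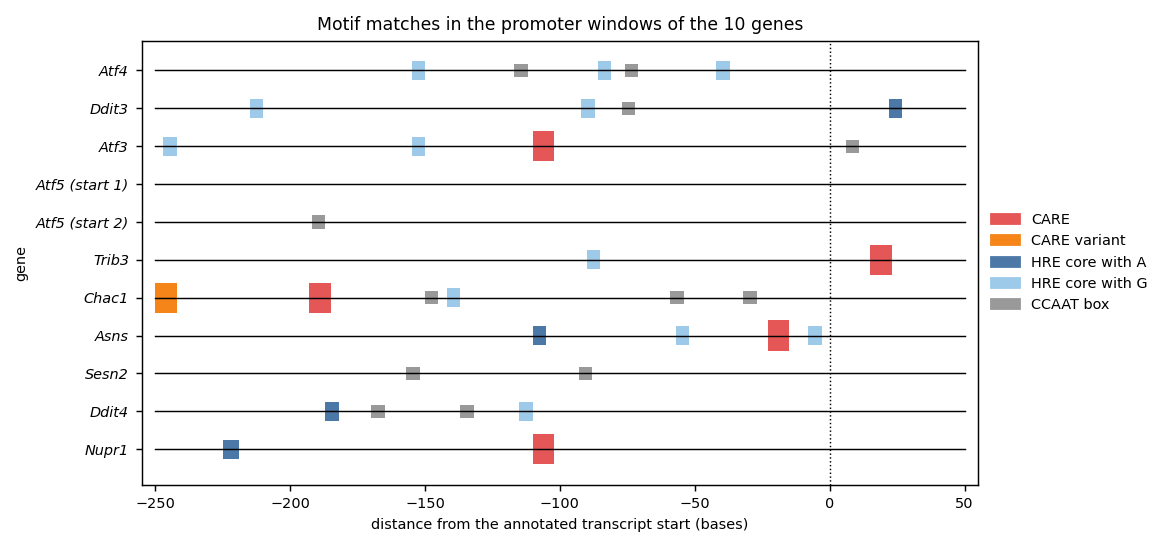
Matches to the 5 searched motifs that were found in the promoter windows of the 10 genes, drawn to scale by distance in bases from the annotated start (dotted line), with Atf5 shown for both of its annotated starts. The C/EBP-ATF response element (CARE, red) appears in Atf3, Trib3, Chac1, Asns and Nupr1, and its variant (orange) in Chac1.

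The remaining 3 genes act on growth and metabolism, and each was called higher in the 1,10-Phen library and in no other. Sesn2 (Gene ID 230784, chr4:132492804-132510456) encodes sestrin 2, a leucine sensor that restrains mTORC1. Its level was 7.89 FPKM with fatostatin, 6.70 with betulin, 10.7 with 25-HC, 13.4 with PF429424 and 21.1 with 1,10-Phen, against 9.25 FPKM with IL4 alone. The betulin library lay below the IL4 library, with a log2 ratio of -0.40 (-0.60 to -0.20), and the fatostatin library did not differ from it beyond counting error. The ratio was 0.25 (0.08 to 0.42) with 25-HC, 0.67 (0.51 to 0.84) with PF429424 and 1.43 (1.28 to 1.59) with 1,10-Phen. Sesn2 is on the minus strand in the annotation and listed on the plus strand in the files, and it overlaps the predicted gene Gm12981 by 6089 bases on its own strand.

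Nupr1 (Gene ID 56312, chr7:126623246-126625470, minus strand) encodes a small chromatin-associated stress protein. It had 8.83 FPKM with fatostatin, 7.55 with betulin, 13.4 with 25-HC, 12.7 with PF429424 and 19.4 with 1,10-Phen, against 8.26 FPKM with IL4 alone. The fatostatin and betulin libraries did not differ from the IL4 library beyond counting error, nor did the PF429424 and 25-HC libraries from each other. The log2 ratio was 0.72 (0.37 to 1.10) with 25-HC, 0.75 (0.39 to 1.13) with PF429424 and 1.45 (1.13 to 1.82) with 1,10-Phen.

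Ddit4 (Gene ID 74747, chr10:59949675-59951770, minus strand), also called REDD1, encodes an inhibitor of mTORC1 that is known to respond to hypoxia and to DNA damage as well as to ATF4. It was the gene that departed most from the rest. Its counts were 72 with fatostatin, 52 with betulin, 42 with 25-HC, 54 with PF429424 and 588 with 1,10-Phen, against 78 with IL4 alone. The 1,10-Phen library stood apart from the other 5, which formed a low group whose neighbours in the order of levels did not differ beyond counting error. Libraries further apart in that order did differ. The level with IL4 alone was 1.49 times the betulin level (1.04 to 2.16) and 1.90 times the 25-HC level (1.29 to 2.83). The log2 ratio with betulin was -0.56 (-1.11 to -0.05). The fatostatin and PF429424 libraries did not differ from IL4 alone beyond counting error. The log2 ratio was 3.08 (2.77 to 3.48) with 1,10-Phen, while it was -0.89 (-1.503 to -0.37) with 25-HC, where Ddit3, Trib3, Chac1 and Asns were called higher, and -0.44 (-0.98 to 0.07) with PF429424. Its promoter window is printed beside the 3 above. It holds no match to TGATGNAA on either strand, and it holds the hypoxia response core letters ACGTG once and GCGTG once, which are present in 19.6% and 32.4% of all windows. Those letters are not particular to Ddit4, since ACGTG was in the windows of 4 of the 10 genes, Asns among them, and GCGTG in 7, among them Trib3, Chac1 and Asns.
Ddit4, chr10:59951721-59952020, minus strand: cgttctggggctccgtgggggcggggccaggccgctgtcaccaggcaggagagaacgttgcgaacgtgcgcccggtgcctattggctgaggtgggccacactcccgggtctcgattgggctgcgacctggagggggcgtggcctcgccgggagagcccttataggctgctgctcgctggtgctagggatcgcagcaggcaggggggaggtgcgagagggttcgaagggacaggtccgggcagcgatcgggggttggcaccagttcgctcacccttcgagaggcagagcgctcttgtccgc

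Genes of other stress pathways were examined beside the 10, from lists chosen with earlier results of these data known. Over all genes compared, 0.873%, 1.92%, 3.3%, 2.5% and 7.71% were called higher with fatostatin, betulin, 25-HC, PF429424 and 1,10-Phen. Called lower were 1.04%, 2.24%, 5.68%, 5.6% and 11.8% in the same order. The counts in every list that follows are to be read beside these shares. The hypoxia-inducible factor list was called higher in 10 of 10 genes with 1,10-Phen, with a median log2 ratio of 3.77, and Egln3, an oxygen-sensing prolyl hydroxylase, had a ratio of 8.94 there. In the other 4 libraries at most 1 gene of that list was called, with medians between 0.13 and 0.75. NRF2 governs the response to oxidants, and 8 of its 9 listed targets were called higher with 1,10-Phen, with a median of 1.82 and the haem oxygenase gene Hmox1 at 3.43, and none was called higher in the other 4 libraries. Nqo1, a quinone reductase gene of that list, was called lower with fatostatin at -2.18, with 25-HC at -1.47 and with PF429424 at -1.14. The hypoxia-inducible factor and NRF2 lists thus had all but 1 of their higher calls, that of Egln3 with PF429424, in the library where Ddit4, Sesn2 and Nupr1 were called, and their part in those calls was not tested. The 9 p53 targets had 2 calls higher with 1,10-Phen, Mdm2 at 1.43 and Cdkn1a at 1.39, but a median of -0.35 there. Mdm2, which encodes the ligase that degrades p53, was also called higher with 25-HC at 1.38, and Trp53inp1 was called lower with betulin at -1.04, 25-HC at -1.09 and PF429424 at -1.41.

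Upstream of ATF4, none of the 4 eIF2alpha kinase mRNAs was called in any library. Between 1.91% and 19.5% of all genes were called in either direction, and for 4 genes no call is near these shares. Eif2ak1, which senses haem, had log2 ratios between -0.32 and -0.02, Eif2ak2, which senses double-stranded RNA, between -0.45 and 0.04, Eif2ak3, which senses unfolded protein in the endoplasmic reticulum, between -0.29 and 0.20, and Eif2ak4, which senses uncharged tRNA, between -0.11 and 0.11. In the whole list of 17 genes of eIF2alpha phosphorylation and its control, 1 gene was called higher with each compound other than fatostatin. It was Ppp1r15a in each case, which encodes GADD34, the subunit that directs a phosphatase to eIF2alpha and restores translation. Its ratio was 0.50 with fatostatin, 1.31 with betulin, 1.70 with 25-HC, 1.05 with PF429424 and 1.78 with 1,10-Phen. Kinase mRNA levels do not measure kinase activity. Among 11 genes for bZIP factors that can pair with members of the core, none was called with fatostatin, betulin, 25-HC or PF429424. With so few genes this is near the share over all genes, at most 8.98% in those libraries. With 1,10-Phen, Cebpb, the C/EBP partner of ATF4, was called higher at 1.33 and Cebpd at 1.30, and Batf3 was called lower at -1.08.

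Among 18 chaperone and folding genes that ATF6 and XBP1 control, the other arms of the unfolded protein response, none was called in the fatostatin, betulin and 25-HC libraries. With PF429424, 1 was called higher and 3 lower, with a median of -0.44. Calr, a calcium-binding chaperone, was at -1.45 there, Sdf2l1 at -1.19, Pdia4, a disulphide isomerase, at -1.10, and Dnajb9, a co-chaperone, at 1.10. With 1,10-Phen, Dnajb9 was called higher at 1.10 and Sdf2l1 lower at -1.44, and the median was -0.54. With PF429424 and 1,10-Phen the median of the chaperone list thus lay below 0, where that of the 10 genes lay above it, and Dnajb9 went against that list median. With 25-HC, where 6 of the 10 genes were called, the chaperone ratios went both ways without a call. Dnajb9 was at 0.69 there and Pdia4 at -0.82.

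Further ATF4 and CHOP targets, in 5 lists, numbered 51 genes, of which 46 were compared. Of these, 1 was called higher with fatostatin, 2 with betulin, 15 with 25-HC, 16 with PF429424 and 28 with 1,10-Phen, and the medians were 0.05, 0.18, 0.72, 0.91 and 1.13 in the same order. Over all genes compared, 0.873%, 1.92%, 3.3%, 2.5% and 7.71% were called higher in that order. With fatostatin and betulin, 1 and 2 genes are too few to be read against these shares. In the last 3 libraries the counts stand above them. Called lower were 1 gene with fatostatin and 2 with PF429424.

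For amino acid synthesis, 11 genes were compared, and 4 were called higher with 25-HC, 6 with PF429424 and 6 with 1,10-Phen, with none called with fatostatin or betulin. Mthfd2, a mitochondrial folate enzyme, had log2 ratios of 0.18 with fatostatin, 0.76 with betulin, 1.77 with 25-HC, 2.15 with PF429424 and 1.81 with 1,10-Phen. Of the serine synthesis genes named here, Psat1 differed in direction between PF429424 and 1,10-Phen, while Phgdh was called higher in both. Phgdh, the first enzyme of that pathway, was at 2.08 with PF429424 and 1.30 with 1,10-Phen, and Psat1, the second, at 1.66 with PF429424 and -0.36 with 1,10-Phen.

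Of 8 amino acid transporter genes compared, 5 were called higher with 25-HC, 4 with PF429424 and 7 with 1,10-Phen. Slc7a1, which imports arginine and lysine, had ratios of 1.51 with 25-HC, 1.87 with PF429424 and 2.17 with 1,10-Phen. Slc7a11, the cystine importer that NRF2 also controls, was at 4.12 with 1,10-Phen, and Slc6a9, a glycine transporter, at 4.36. Of 13 tRNA synthetase genes, none was called with fatostatin or betulin, 3 were called higher with 25-HC, 5 with PF429424 and 8 with 1,10-Phen. Aars, for alanine, was at 1.28 with 25-HC, 1.47 with PF429424 and 1.42 with 1,10-Phen, and Cars, for cysteine, at 1.13, 1.30 and 1.59.

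Of the secreted stress factors, 3 were compared. Gdf15, a stress cytokine, was called higher with betulin, at 1.51, and with PF429424, at 1.22, and had 0.83 with 25-HC and 0.87 with 1,10-Phen. Vegfa, the angiogenic factor that hypoxia also induces, was called higher with fatostatin, at 1.15, with 25-HC, at 1.82, and with 1,10-Phen, at 2.89. It is the single target of the 46 that was called higher with fatostatin. Stc2, which encodes stanniocalcin 2 and is named here after its values were seen, was called higher with 1,10-Phen on 33 counts, against 2 with IL4 alone, and had at most 1 count with each other compound. Stc2 reached the minimum CPM of 1 to be compared through the 1,10-Phen library alone, at 1.77 CPM. Its call there, among the 28 targets called higher, follows from that entry. Among 11 genes of growth control, autophagy and death, 0 were called higher with fatostatin, 1 with betulin, 2 with 25-HC, 0 with PF429424 and 5 with 1,10-Phen. With 1,10-Phen, Ero1l, an oxidase of the endoplasmic reticulum, was at 5.10, Vldlr, a lipoprotein receptor, at 4.41, and Eif4ebp1, a translation inhibitor, at 2.89. The hypoxia-inducible factor and NRF2 lists had most of their higher calls in the same library. The part of those pathways in the target ratios was not tested. Gadd45a, a growth arrest gene, had ratios of 0.94 with fatostatin, 1.09 with betulin, 1.86 with 25-HC, 0.95 with PF429424 and 3.18 with 1,10-Phen. Sqstm1, the autophagy receptor p62, was at 1.37 with 25-HC. The 2 genes of the list called lower were so with PF429424, Klhl24 at -1.13 and Bcl2l11, which encodes the death factor BIM, at -1.03.

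**Figure D4:**
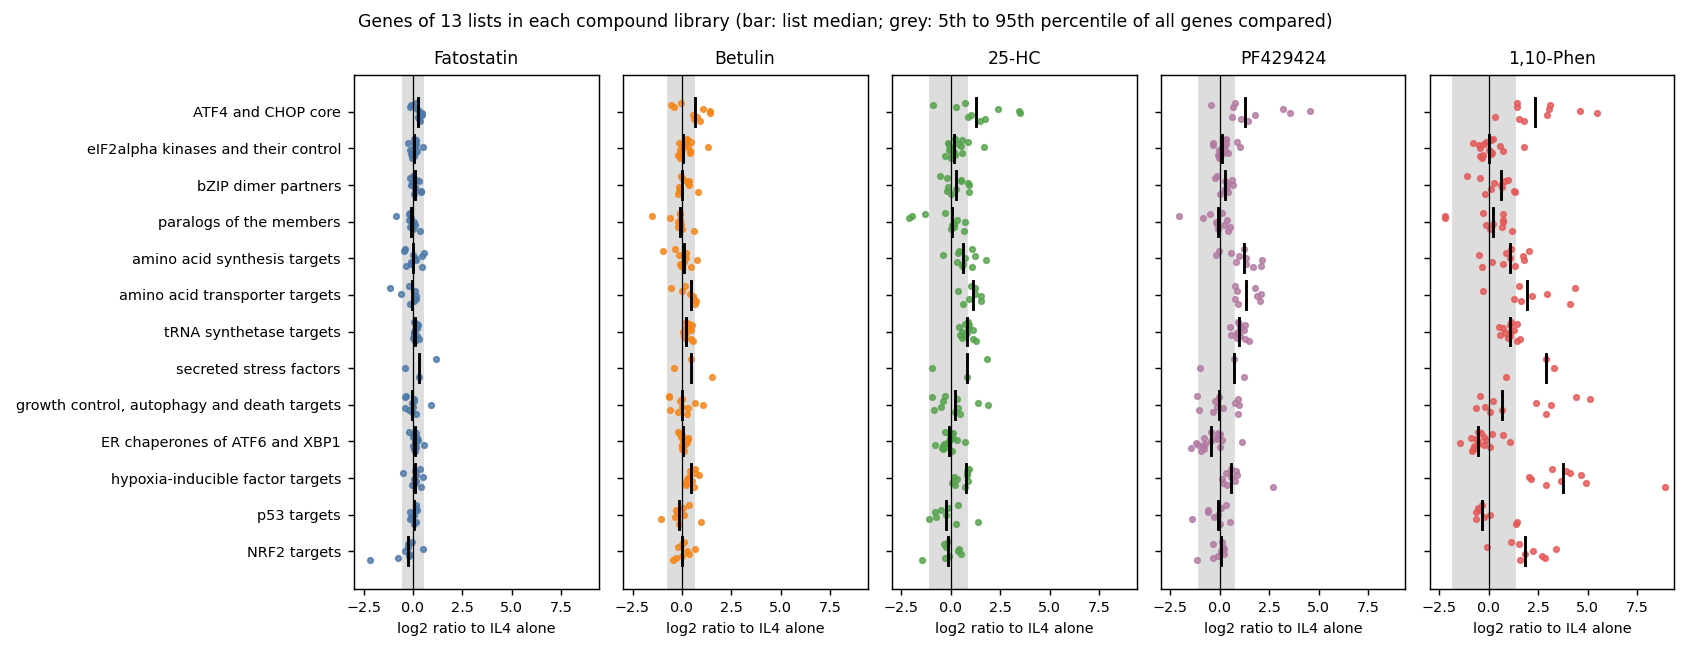
Log2 ratio to IL4 alone of every compared gene in the core and in the 12 pathway lists, 1 panel per compound, with the median of each list as a bar and the 5th to 95th percentile of all compared genes in grey. The hypoxia-inducible factor list lies to the right of 0 in the 1,10-Phen panel with a median of 3.77, and the list of ER chaperones lies at -0.54.

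Of 11 paralogs of the 10 genes compared, 0 were called higher with fatostatin, betulin, 25-HC or PF429424. Over all genes this share was between 0.873% and 3.3%. With 1,10-Phen 1 was called higher, Atf1 at 1.16, against 7.71% of all genes. These counts of higher calls are near the shares over all genes and are not read as a result about the paralogs. The sestrins differed by library. Sesn1 had log2 ratios of -0.61 with betulin, -2.11 with 25-HC, -0.84 with PF429424 and -2.24 with 1,10-Phen, and Sesn3 had -1.52, -1.95, -2.06 and -2.20. Sesn3 was called lower in each of these libraries, and Sesn1 with 25-HC and 1,10-Phen. Over all genes compared, 2.24%, 5.68%, 5.6% and 11.8% were called lower in the same order. With 1,10-Phen, Sesn2 was called higher while Sesn1 and Sesn3 were called lower. With betulin all 3 sestrins lay below the IL4 library, Sesn2 at -0.40. Chac2, the constitutive relative of Chac1, stayed between -0.18 and 0.71, Trib1 between -0.19 and 0.72, and Asnsd1 between -0.29 and 0.12. Atf6, the sensor of the parallel unfolded protein response arm, stayed between -0.22 and 0.69.

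Levels per length showed how the make-up of the core differed between libraries. The 10 genes summed to 510 FPKM with fatostatin, 705 with betulin, 984 with 25-HC, 896 with PF429424 and 1028 with 1,10-Phen, against 431 FPKM with IL4 alone. Atf3 was the most abundant of the 10 in every library other than 1,10-Phen, where Atf4 was. The share of the summed FPKM that was Atf3 was 53.8% with fatostatin, 55.1% with betulin, 43.5% with 25-HC, 36.9% with PF429424 and 24.0% with 1,10-Phen, against 55.2% with IL4 alone. Trib3 stood at 0.08 of the FPKM of Ddit3 with fatostatin, 0.12 with betulin, 0.20 with 25-HC, 0.36 with PF429424 and 0.97 with 1,10-Phen, against 0.07 with IL4 alone. The FPKM of Asns over that of Ddit3 was highest with PF429424, at 2.24, against 0.61 with IL4 alone. Both proportions depend on the unit, since the log2 ratio of Ddit3 with 25-HC was 2.02 by log2(FPKM + 1) and 1.75 in scaled counts.

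The 25-HC, PF429424 and 1,10-Phen libraries shared calls in 6 genes, Atf4, Ddit3, Atf5, Trib3, Chac1 and Asns, in different proportions. The call of Ddit3 with PF429424 did not hold with library totals as the scaling, at 0.94, or against the fatostatin library, at 0.79. That of Atf5 with 25-HC did not hold on the log2(FPKM + 1) scale, at 0.98, or against the fatostatin library, at 0.57. All 3 ratios use the same IL4 library, so that this count is not independent between them. Set directly against each other, 25-HC exceeded PF429424 in Ddit3, at 1.6 times, and the PF429424 library exceeded 25-HC in Chac1, at 2.21 times (1.80 to 2.71), in Asns, at 1.75 times (1.66 to 1.84), and in Atf5. In Trib3 the 1,10-Phen library was 3.71 times the PF429424 library (3.41 to 4.04) and 3.92 times the 25-HC library (3.61 to 4.27). Whether these differences exceed the spread between cultures cannot be tested with 1 library each.

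The profiles were compared by the root mean square difference of log2 levels over the 6 libraries after centring each gene on its own mean, where 0 means the same profile. The median over pairs of the 10 genes was 0.91. Atf4 and Ddit3 were close, at 0.21, and so were Sesn2 and Nupr1, at 0.18. Trib3 and Chac1, at 0.54, were nearer to each other than to any other of the 10. Atf3 was 0.50 from its nearest fellow, Ddit3, and 7619 of 9968 genes searched were nearer to it than Ddit3. Ddit4 was 0.90 from the nearest, Atf5.

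**Figure D5:**
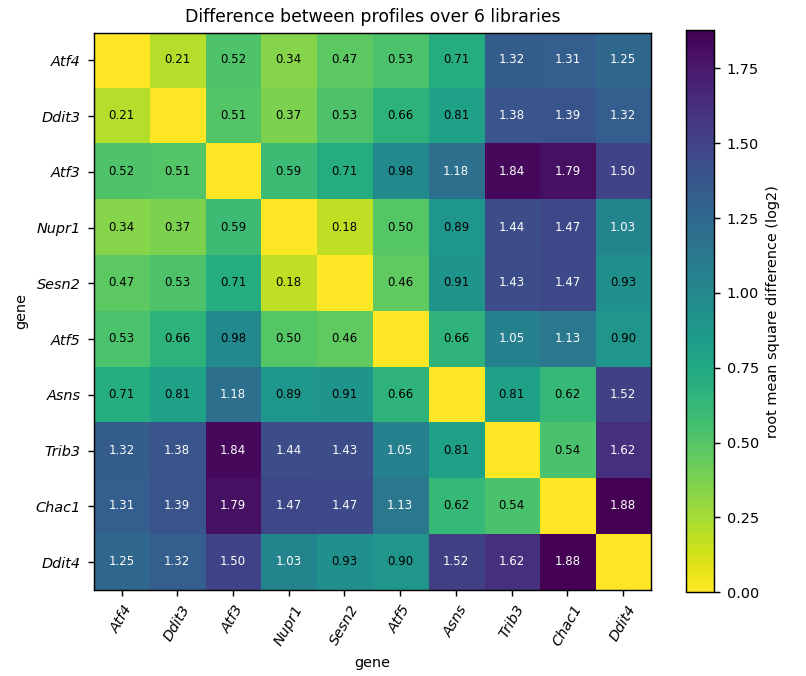
Root mean square difference between the centred log2 profiles of each pair of the 10 genes over the 6 libraries, with darker cells for larger differences. The pair Sesn2 and Nupr1 has the smallest difference, 0.18, and the pair Chac1 and Ddit4 the largest, 1.88.

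Over all 9968 genes searched, the nearest to Atf4 was Txnrd3, at 0.10, and the nearest to Ddit3 was Socs3, an inhibitor of cytokine signalling, at 0.15. Rdh13 was nearest to Atf3 at 0.05, Maff, a small MAF factor, to Atf5 at 0.23, Rhbdd1 to Sesn2 at 0.17, and Klf4, a transcription factor, to Nupr1 at 0.09. Soat2, a cholesterol-esterifying enzyme, was nearest both to Trib3, at 0.50, and to Asns, at 0.44, with log2 ratios of 0.27 with fatostatin, 0.79 with betulin, 2.91 with 25-HC, 2.76 with PF429424 and 3.90 with 1,10-Phen. Treml4 was nearest to Ddit4 at 0.21, with 2.93 with 1,10-Phen and between -1.05 and -0.57 elsewhere. The nearest gene to Chac1 was Trib3. These neighbours depend on the unit and the libraries, since the nearest to Chac1 was Asns, at 0.16, on the log2(FPKM + 1) scale, and the nearest to Atf5 was Psat1, at 0.07, without the 1,10-Phen library.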

How the data were processed

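RNA was extracted with TRIzol and 1 ug per library was used, per the labels' protocols. Per the file headers, the authors deposited an estimated count (expected count) per gene, unscaled, and an FPKM value, scaled to length and depth. RSEM 1.2.12, HISAT2, DESeq2 and Bowtie2 stand in the submitters' processing notes with no role for each. Gene IDs are NCBI's on GRCm38. For the strand setting, the sources used here give no value.

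Estimated counts were rounded to whole numbers and scaled with TMM factors (edgeR 4.0.16, R 4.3.3). Log2 ratios used a prior count of 2. The genes compared reached 1 CPM (TMM-scaled count relative to library size) in 1 or more libraries. Intervals are exact Clopper-Pearson, 95%. The procedure was run on simulated counts with known folds. Their recovery was required only where counts varied by counting error alone, which does not cover the spread between cultures. Python 3.11.15, numpy 2.4.6, pandas 2.3.3, SciPy 1.17.1 and matplotlib 3.10.9 were used otherwise, and DESeq2 1.42.0 for an alternative scaling. Promoters and positions are RefSeq's on GRCm38.p6, and overlaps GENCODE's.

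The members, lists and tests were chosen with earlier results of these data known. Named are all members, their paralogs, the eIF2alpha kinases, the nearest genes by profile, and from each list up to 4 genes with the largest ratios in a comparison among genes that reach a CPM of 5. Values of a gene so named may be given for other comparisons too, and genes that overlap a member are named with it. The alternatives were scaling, filter, prior count, unit, size required and reference library.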

Additional observations from a re-analysis of the deposited data

How the results depend on the processing

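No paired analysis was possible because each treatment has 1 library, and for the same reason no replicate could be left out. The counts of all genes called, in either direction, were 228 with fatostatin, 496 with betulin, 1069 with 25-HC, 965 with PF429424 and 2319 with 1,10-Phen. With no filter the fatostatin count was 348, with a prior count of 10 it was 127, and with a CPM of at least 5 the counts were 106 with fatostatin, 283 with betulin and 639 with PF429424. On the log2(FPKM + 1) scale they were 70 with fatostatin, 177 with betulin, 515 with 25-HC and 492 with PF429424, and the share of calls that were higher was 32.9% with fatostatin (main 45.6%), 19.3% with PF429424 (main 30.9%) and 25.0% with 1,10-Phen (main 39.6%). With library totals that share was 19.9% with PF429424 and 24.8% with 1,10-Phen, and against the median of the 6 libraries it was 67.6% with fatostatin. At 1.5-fold they were 621, 1343, 2560, 2222 and 4247 in the order of compounds above, and at 4-fold 28, 68, 208, 168 and 773. Against the median of the 6 libraries they were 104 with betulin, 329 with 25-HC and 222 with PF429424, and against the fatostatin library, an alternative chosen after seeing the data, 628 with PF429424.

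Of the 10 stress response genes, 0, 3, 6, 6 and 9 were called in the same order of compounds. On the log2(FPKM + 1) scale 0 were called with betulin and 5 with 25-HC, and with library totals 2 with betulin and 5 with PF429424. At 1.5-fold 6 were called with betulin, and at 4-fold 0 with betulin, 3 with 25-HC, 3 with PF429424 and 5 with 1,10-Phen. Against the median of the 6 libraries, 3 were called with fatostatin, all lower, 2 with 25-HC and 3 with PF429424. Against the fatostatin library 1 was called with betulin, 5 with 25-HC and 5 with PF429424. Against the median of the 6 libraries, the betulin ratios of Trib3, Chac1 and Asns were -1.025, -1.014 and -0.679. Those with 25-HC were 1.025, 1.014 and 0.679, because for these genes the median lies midway between these 2 libraries. The negative sign with betulin was thus set by the reference, which holds the betulin library itself, and is not a change against IL4. Calls against this median required the size alone, with no counting interval.

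Of the 46 further targets, 2, 2, 15, 18 and 28 were called in either direction. With a prior count of 10 it was 1 with fatostatin. On the log2(FPKM + 1) scale it was 1 with fatostatin, 1 with betulin and 18 with 1,10-Phen. At 1.5-fold it was 10 with betulin, 28 with 25-HC and 35 with PF429424, at 4-fold 0, 0, 0, 4 and 12, and against the median of the 6 libraries 4, 1, 0, 5 and 15. Scaling by library totals moved the median of all genes to -0.25 with 1,10-Phen and -0.11 with PF429424. DESeq2 size factors moved none of the 50 log2 ratios of the 10 genes beyond its counting interval. Apart from the signs set by the median reference, the cause of these changes was not tested. Depth limits Chac1 most, with 11 counts with IL4 alone.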
